A study of Caenorhabditis elegans with 2 samples.

Results

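The genes described here encode the respiratory chain and the ATP synthase of the mitochondrion in Caenorhabditis elegans, examined for peaks of the nuclear hormone receptor NHR-11 in their promoters. Members were the nuclear protein-coding genes whose Ensembl names begin with nuo-, nduf-, sdha-, sdhb-, sdhd-, ucr-, cox-, cyc-, atp-, asb- or asg-, together with gas-1, lpd-5, mev-1 and isp-1. The rule took 52 of 19973 nuclear protein-coding genes. By role, 14 belonged to complex I, 5 to complex II, 7 to complex III, 2 to cytochrome c, 7 to complex IV, 8 to the factors that assemble complex IV and 9 to the ATP synthase. The rule used names only and no measured value. It left out the 12 protein-coding genes of the mitochondrial genome, on which none of the lists had a peak.

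The respiratory chain passes electrons from NADH and succinate to oxygen through complexes in the inner mitochondrial membrane, and some of these complexes pump protons as they do so. The ATP synthase lets the protons back and makes ATP. Most subunits are encoded in the nucleus and imported, while a few core subunits are encoded by mitochondrial DNA. In C. elegans the chain is known for the long life or stress sensitivity of its mutants, such as isp-1, nuo-6, gas-1 and mev-1. NHR-11 is a nuclear hormone receptor, one of a large class of transcription factors that is much expanded in worms.

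Chromatin immunoprecipitation with sequencing (ChIP-seq) recovers and sequences the DNA attached to a chosen protein. It was applied to whole larvae at L4, the last larval stage, of mixed sex. All animals formed 1 group, sampled as 2 biological replicates, so nothing was compared between conditions. Both replicates came from strain OP305, which carries unc-119(ed3), a mutation widely used to select transgenic worms, and wgIs305, the transgene insertion that supplies NHR-11 tagged with eGFP, a green fluorescent protein. The tagged protein came from a transgene, and cells of all tissues were mixed, so a peak cannot be given to a tissue. A possible control experiment is named in the labels and is not used here, so whether other tagged proteins would give the same peaks was not tested.

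The deposited lists in build ce11 held 19074 peaks in replicate 1, 22137 in replicate 2 and 13558 in the list called on both replicates pooled. The thresholded list, which the authors derived from these lists by reproducibility between replicates, held 2719 peaks. Those were exactly the 2719 pooled peaks with a signal of 54.9 or more, or 20.1% of the pooled list. The signal is the strength that the authors' peak caller gave a peak, on a scale that is not stated, and it is compared here only within a list. Rank 1 is the strongest peak of a list. The lists give no read counts, so sequencing depth is unknown and every 95% interval below (Clopper-Pearson) covers the counting of genes only. A gene counted as having a promoter peak when a summit lay between 1000 bp upstream and 200 bp downstream of its annotated start.

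Promoter peaks were common at the respiratory genes. A thresholded promoter peak was found at 18 of the 52 genes, or 34.6% (22 to 49.1%), against 8.28% of all protein-coding genes. In the pooled list 35 genes had one, or 67.3% (52.9 to 79.7%), against 25.3% of all genes. Replicate 1 alone had a promoter summit at 34 of the genes (65.4%, background 30.4%) and replicate 2 at 36 (69.2%, background 33.8%). Both full replicate lists had one at 31 genes (59.6%, background 21.3%). Among the 44 genes other than the complex IV assembly factors, 18 (40.9%) had a thresholded peak, and 32 had a pooled one. None of the 8 assembly factors had a thresholded peak, where the share over all protein-coding genes was 8.28%. No test was made of these shares, since the genes were chosen with earlier results of these data known.

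Sequences are shown for a selection of the promoter peaks, chosen by signal, by shared letters or for lying at the edge of the threshold, as 101 bases centred on the summit, read 5′ to 3′ on the strand of the gene. They come from the reference genome in build ce11. Capitals mark letters that are referred to here: GGGCGG (the core of a GC box), CTGCGTCT and GAGAGA on either strand, and runs of 9 letters shared by 3 or more of the respiratory summit windows. The first group are the ATP synthase peaks of atp-2 (chrIII:5228121-5228221, plus strand) and asb-2 (chrX:4469450-4469550, plus strand) and the complex I peak of nuo-1 (chrII:11097510-11097610, plus strand). Chosen by signal, they are placed together because all 3 windows hold the run TCGCAACGA, on one strand or the other.
atp-2: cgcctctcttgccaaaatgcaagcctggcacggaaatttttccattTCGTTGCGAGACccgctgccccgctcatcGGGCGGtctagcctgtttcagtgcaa
asb-2: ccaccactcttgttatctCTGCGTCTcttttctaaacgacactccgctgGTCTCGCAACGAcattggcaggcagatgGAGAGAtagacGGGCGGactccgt
nuo-1: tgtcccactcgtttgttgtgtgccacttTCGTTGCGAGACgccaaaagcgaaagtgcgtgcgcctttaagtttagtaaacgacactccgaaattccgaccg
The run TCGCAACGA stood in 18 of all 2719 thresholded summit windows (0.662%), and the neighbouring run GTCTCGCAA in 19 (0.699%). In windows of the same length placed 100 bp upstream of all protein-coding genes, the shares were 0.0951% and 0.0901%. The same 3 genes held both runs. The runs were searched for after the data had been seen, and no test was made of them.

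The next group are the peaks of sdha-1 (chrX:8546176-8546276, minus strand), ucr-2.2 (chrX:15173650-15173750, plus strand) and nduf-11 (chrII:11345768-11345868, minus strand), of complexes II, III and I. They are shown because they hold the run GAAACGCGC or its reverse complement GCGCGTTTC, which the window of cyc-1 of complex III held as well.
sdha-1: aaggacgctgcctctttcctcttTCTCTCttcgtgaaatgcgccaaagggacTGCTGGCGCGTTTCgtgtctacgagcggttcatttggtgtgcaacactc
ucr-2.2: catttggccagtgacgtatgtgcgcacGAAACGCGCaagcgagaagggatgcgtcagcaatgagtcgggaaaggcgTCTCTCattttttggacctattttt
nduf-11: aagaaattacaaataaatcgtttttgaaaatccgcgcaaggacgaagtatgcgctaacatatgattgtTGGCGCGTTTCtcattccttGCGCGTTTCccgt
GAAACGCGC stood in 4 of the 18 respiratory windows, in 36 of all 2719 thresholded windows (1.32%), and in 0.130% of windows of the same length placed 100 bp upstream of all protein-coding genes. Of 1592 distinct 9-letter runs in the 18 windows, it was the only one held by 4 of them, and 7 more were held by 3. In all, 8 of the 18 windows held at least 1 of the 8 runs. The runs were picked for recurring in these same windows, so this count follows from that choice. No count of this kind over all 2719 windows is given beside it. Runs such as GAAACGCGC, AAACGCGCC and AACGCGCCA overlap one another, and so do TCGCAACGA and GTCTCGCAA, so the 8 runs are not 8 separate findings.

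The last group are the peak of cox-5A (chrIII:12905151-12905251, plus strand), the highest in signal of those shown, that of asg-2 (chrX:6841000-6841100, plus strand), and the peaks on either side of the threshold, isp-1 (chrIV:8136262-8136362, minus strand) and ucr-1 (chrIII:5591917-5592017, plus strand). They are shown so that peaks of high and low signal can be set beside each other.
cox-5A: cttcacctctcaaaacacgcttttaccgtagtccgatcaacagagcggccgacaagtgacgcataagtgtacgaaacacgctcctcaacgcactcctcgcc
asg-2: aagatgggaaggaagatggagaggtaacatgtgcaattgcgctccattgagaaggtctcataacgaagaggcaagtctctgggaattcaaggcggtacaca
isp-1: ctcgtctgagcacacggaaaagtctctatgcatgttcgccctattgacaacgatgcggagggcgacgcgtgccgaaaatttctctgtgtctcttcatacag
ucr-1: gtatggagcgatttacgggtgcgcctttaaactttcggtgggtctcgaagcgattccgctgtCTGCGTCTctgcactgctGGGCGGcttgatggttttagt
The windows of cox-5A, asg-2 and isp-1 held none of the 8 motifs searched, although their signals ran from 319.7 down to 63.2. The window of ucr-1, just under the threshold at 52.7, held both CTGCGTCT and GGGCGG.

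The hexamers AGGTCA and AAGTCA, which many nuclear receptors bind, were searched for on both strands, and neither stood in any of the 18 thresholded windows. Over all 2719 windows AGGTCA was in 2.65% and AAGTCA in 3.38%, and in the windows upstream of all genes the shares were 3.34% and 4.69%. GGGCGG was in 4 windows (22.2%), those of atp-1, atp-2, asb-2 and ucr-2.1, against 5.59% of all thresholded windows and 3.40% of the upstream windows. GAGAGA was also in 4 (22.2%), those of asb-2, sdha-1, nduf-7 and ucr-2.2, against 30.4% and 9.03%. CTGCGTCT was in 1, that of asb-2, against 9.86% and 1.5%. TATAAA was in cyc-1 alone, TTTTTTTT in atp-3 alone and CACGTG in none, against 4.16%, 4.08% and 5.99% of all thresholded windows. Every motif was searched on both strands, a window counted once however many matches it held, and matches of different motifs were allowed to overlap. A match describes the letters and does not show a site that is used. The respiratory windows were also rich in G and C, with a median of 52.5% (41.6 to 66.3%), against 46.5% for all thresholded windows. This base composition moves with the GGGCGG count, and its part in that count was not tested. All thresholded windows include peaks outside promoters, so neither the motif shares nor the GC content were set against promoter peaks alone. Over the whole promoter window of each gene, the GC content was 36.3% at the median for members with a thresholded peak and 36.8% for those without.

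**Figure D1:**
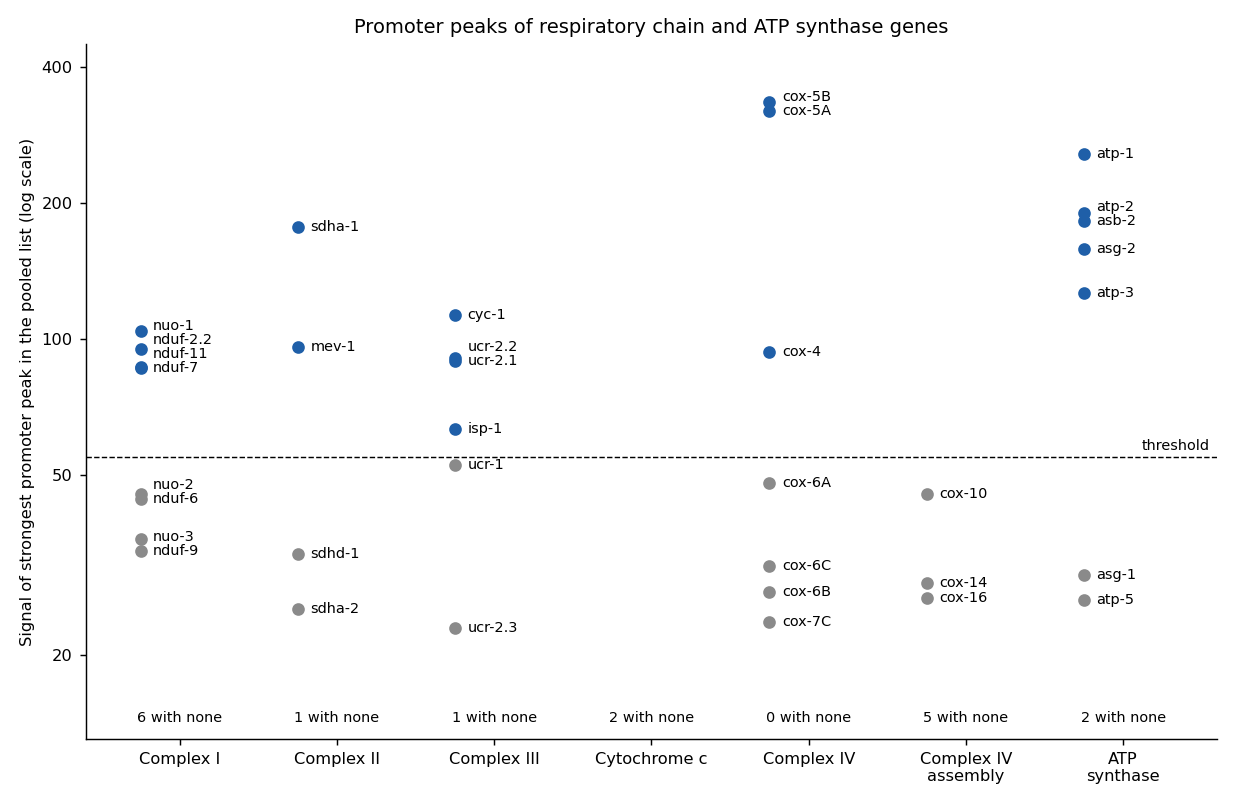
Signal of the strongest promoter peak of each gene in the pooled list, on a log axis in the authors' unit, by complex. Blue points are thresholded peaks and grey points lie under the threshold of 54.9 (dashed line); the text at the foot counts genes with no pooled promoter peak. The highest points belong to complex IV (cox-5B and cox-5A) and to the ATP synthase, and the assembly factors lie wholly under the line.

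Among the genes that the naming rule takes, the ATP synthase had the most thresholded peaks of any complex, at 5 of its 9 genes (55.6%). By share, complex III stood slightly higher, with 4 of 7 (57.1%). Complex I genes under newer names, given further on, are not in this ranking. The ATP synthase peaks are described first. They fell on the catalytic head, on the stalk that holds it and on the membrane part. The gene atp-1, which encodes the alpha subunit, had its summit at position 12652283 of chromosome I, 6 bp inside the 5′ UTR, with a pooled signal of 256 (rank 91). Its signal was 117 in replicate 1 (rank 126) and 139 in replicate 2 (rank 79). The gene atp-2, for the beta subunit that carries the catalytic site, had its summit 246 bp upstream of the start (position 5228171, chromosome III) at 190.4 (rank 237), with 87.2 in replicate 1 (rank 306) and 102 in replicate 2 (rank 208). Both head subunits thus stood among the 306 strongest peaks of every list. The gene atp-3, for the oligomycin sensitivity-conferring protein that joins head and stalk, had a peak 31 bp upstream at 127 (rank 625), with 55.2 in replicate 1 (rank 835) and 65.7 in replicate 2 (rank 611).

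The remaining ATP synthase genes come partly as pairs of paralogs, and in both pairs a single paralog had the thresholded peak. Of the genes for subunit b of the stator, asb-2 had a summit 266 bp upstream at 182 (rank 257), with 74.2 in replicate 1 (rank 438) and 108 in replicate 2 (rank 176). Its paralog asb-1, known as a germline form, had no pooled or replicate 1 summit, and in replicate 2 only one of rank 20344. Of the genes for subunit g, asg-2 had a summit 208 bp upstream at 158 (rank 379), with 87.2 in replicate 1 (rank 305) and 68.0 in replicate 2 (rank 574). Its paralog asg-1 had a pooled peak of 30.03 (rank 7041) that replicate 1 held at 19.2 and replicate 2 did not hold; the summit lay 318 bp upstream of asg-1 and 6 bp upstream of mrps-15, a mitochondrial ribosomal protein gene on the other strand. Contrasts between paralogs were noted after the values had been seen. Of the peripheral subunits, atp-5 had a pooled peak of 26.5, and atp-4 had a summit in both replicates (15.1 and 11.7) but none in the pooled list.

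Complex IV, cytochrome c oxidase, had a pooled promoter peak at all 7 of its nuclear subunit genes, and a thresholded one at 3. The strongest respiratory peaks of all were at cox-5B and cox-5A. The cox-5B summit lay 22 bp upstream of the start (position 9788703, chromosome I) at 336 (rank 38), with 148 in replicate 1 (rank 59) and 186 in replicate 2 (rank 30). The cox-5A summit lay 290 bp upstream (position 12905201, chromosome III) at 319.7 (rank 43), with 169.6 in replicate 1 (rank 33) and 150.0 in replicate 2 (rank 64). Both were in the strongest 1.58% of the thresholded list, and the replicates ranked them in opposite order. The gene cox-4 had a summit 443 bp upstream at 93.6 (rank 1115), with 39.7 in replicate 1 (rank 1501) and 54.9 in replicate 2 (rank 873). The small subunits cox-6A, cox-6C, cox-6B and cox-7C had pooled peaks of 48.0, 31.4, 27.5 and 23.6, all under the threshold. The last 3 of these summits lay nearer the start of a gene on the other strand, grld-1 for cox-6C (383 bp against 417), slc-30A9 for cox-6B (200 bp against 646) and F26E4.4 for cox-7C (209 bp against 398).

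The gene model of cox-6B holds a second start 86539 bp downstream of the first, and a thresholded peak lay 156 bp upstream of that start. Its pooled signal was 230 (rank 137), with rank 112 in replicate 1 and rank 175 in replicate 2. The same summit lay 806 bp upstream of nduc-2, a gene named for a complex I subunit, which the naming rule does not take. A similar case was cyc-2.1 of cytochrome c, which had no peak at its first start but one 142 bp upstream of a start 563 bp away, at 86.1 (rank 1288). Neither peak counts among the 18.

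Among the factors that assemble complex IV, none of the 8 genes had a thresholded promoter peak. Counting alone allows a share of up to 36.9%, an interval that holds the 8.28% of all protein-coding genes. That interval overlaps the one of the complex IV subunits (9.90 to 81.6%), and the difference was not tested. The assembly gene sco-1, which the naming rule does not take, had a thresholded peak of 181. The gene cox-10, for the enzyme that begins the making of heme A, had a pooled peak of 45.3, with its summit 54 bp into its coding exon. The genes cox-14 and cox-16 had pooled peaks of 28.9 and 26.7, and cox-17, a copper carrier, had a summit in replicate 2 only. The copper factors cox-11 and cox-19, the heme A synthase cox-15 and the membrane insertion factor cox-18 had no promoter summit in any list. Of these 8 genes, 6 lay close behind another gene on the same strand, against 6163 of all 19973 protein-coding genes. This placement is taken up further on.

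Complex III, the cytochrome bc1 complex, had thresholded peaks at 4 of 7 genes. The gene cyc-1, for cytochrome c1, had a summit 313 bp upstream at 113 (rank 781), with 40.5 in replicate 1 (rank 1452) and 68.7 in replicate 2 (rank 561). The core protein genes ucr-2.2 and ucr-2.1 had nearly equal peaks. For ucr-2.2 the summit was 204 bp upstream at 90.8 (rank 1178), with 49.6 in replicate 1 (rank 995) and 39.8 in replicate 2 (rank 1612). For ucr-2.1 it was 239 bp upstream at 89.3 (rank 1204), with 47.6 in replicate 1 (rank 1073) and 39.5 in replicate 2 (rank 1628). The third paralog, ucr-2.3, had a pooled peak of only 22.95 (rank 11901), in a coding exon of its neighbour T24C4.5.

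The threshold ran between a pair of complex III genes. The gene isp-1, for the Rieske iron-sulfur protein, had the weakest thresholded peak of the 18, 257 bp upstream at 63.2 (rank 2199), with 41.7 in replicate 1 (rank 1363) and 24.0 in replicate 2 (rank 3667). The gene ucr-1, for the other core protein, came next below the threshold at 52.7 (rank 2912), with 29.6 in replicate 1 (rank 2480) and 22.8 in replicate 2 (rank 4001). Both were relatively stronger in replicate 1. A small complex III gene, ucr-11, had no promoter summit in any list.

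Complex II, succinate dehydrogenase, had thresholded peaks at 2 of 5 genes. The gene sdha-1, for the flavoprotein that oxidises succinate, had a summit 205 bp upstream at 177 (rank 278), with 68.8 in replicate 1 (rank 519) and 101 in replicate 2 (rank 211). The summit also lay 22 bp upstream of D2021.6, a snoRNA gene on the same strand. Its paralog sdha-2 had a pooled peak of 25.2 (rank 9792), seen in replicate 1 and not in replicate 2. The membrane anchor mev-1 had a summit 148 bp upstream at 96.2 (rank 1053), with 35.8 in replicate 1 (rank 1812) and 59.7 in replicate 2 (rank 753). The other anchor, sdhd-1, had a pooled peak of 33.5, and sdhb-1, for the iron-sulfur subunit, had none in any list.

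Complex I, NADH dehydrogenase, had thresholded peaks at 4 of 14 genes (28.6%), all of modest strength between 86.3 and 104. The gene nuo-1, for the subunit that binds NADH, had a summit 277 bp upstream at 104 (rank 908), with 61.8 in replicate 1 (rank 678) and 41.8 in replicate 2 (rank 1475). The gene nduf-2.2 had a summit 786 bp upstream at 94.99 (rank 1085), with 43.2 in replicate 1 (rank 1282) and 57.1 in replicate 2 (rank 814). Its paralog gas-1, the other gene for this core subunit, had only a replicate 2 summit of rank 21994. The gene nduf-11 had a summit 198 bp upstream at 86.9 (rank 1261), with 38.8 in replicate 1 (rank 1568) and 45.6 in replicate 2 (rank 1247). For nduf-7 the summit lay 61 bp upstream at 86.3 (rank 1278), with 31.3 in replicate 1 (rank 2260) and 53.2 in replicate 2 (rank 927).

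Weaker pooled peaks were found at the complex I genes nuo-2 (45.5), nduf-6 (44.2), nuo-3 (36.2) and nduf-9 (33.9). The nuo-2 summit lay in the 3′ UTR of T10E9.14, the gene just before it. No list had a promoter summit at nuo-4, nuo-5, nuo-6, nduf-5 or lpd-5. Annotation also holds 21 complex I genes under the newer names ndua-, ndub-, nduc-, ndus-, nduv- and ndab-, which the rule does not take and which were gathered after the data had been seen. Among them 5 (23.8%) had a thresholded promoter peak and 13 a pooled one. The strongest were nduc-2 at 230, ndab-2 at 137 and ndua-8 at 128, with summits 806, 917 and 250 bp upstream. The nduc-2 summit is the one described above, in an intron of cox-6B and only 156 bp upstream of the second start of that gene. It cannot be given to nduc-2 alone. With these added, 23 of 73 genes (31.5%) had a thresholded peak.

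The cytochrome c genes, cyc-2.1 and cyc-2.2, which carry electrons between complexes III and IV, had no promoter summit in any of the lists. With 2 genes, counting alone allows a share of up to 84.2%.

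The 18 peaks were found in both replicates, with ranks that differed more at some genes than at others. All 18 lay among the 2719 strongest peaks of replicate 1 and 17 of them among the 2719 strongest of replicate 2, the exception being isp-1. The same held for both replicates at 17 of the 18 peaks, against 1986 of all 2719 thresholded peaks (73.0%). The 2 sets differ in signal, with a median of 109 for the 18 and 83.9 for the whole list, which also holds peaks outside promoters. The part of signal in this difference was not tested. The thresholded list was itself made from both replicate lists, so these counts describe it and do not test it. Summits in the replicates lay close to the pooled summit, at a median of 4 bp and at most 68 bp, which was at nduf-2.2 in replicate 1. The rank was better in replicate 2 for most of the peaks, and better in replicate 1 for asg-2, cox-5A, isp-1, nuo-1, ucr-2.1 and ucr-2.2.

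**Figure D2:**
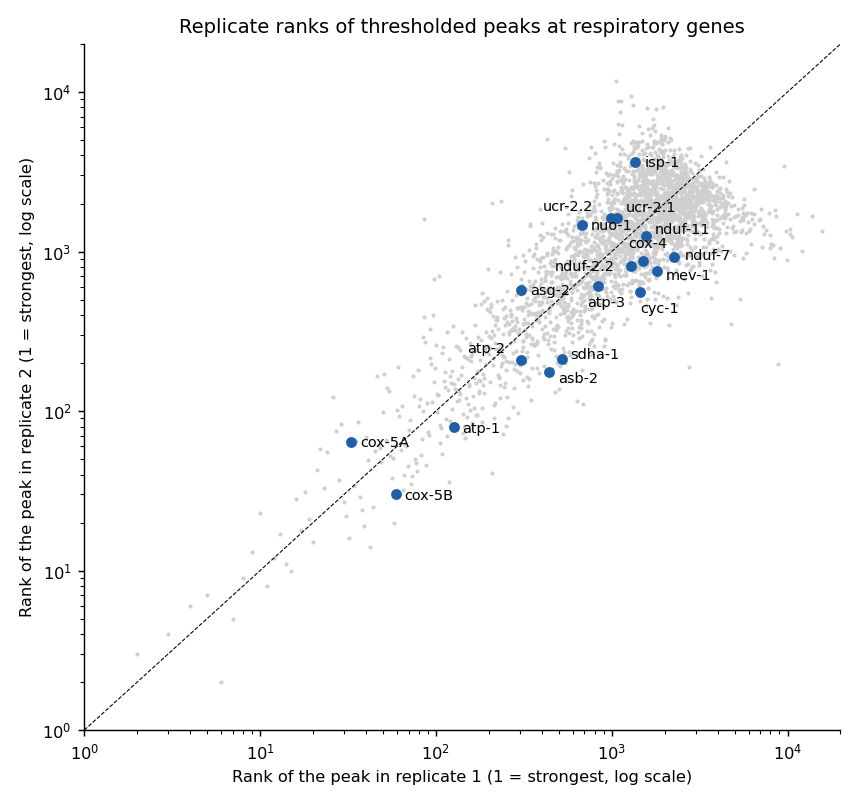
Rank of each peak in replicate 1 (horizontal) and replicate 2 (vertical), both on log axes with 1 the strongest. Grey points are the 2700 thresholded peaks whose interval held a summit in both replicate lists, blue points are the 18 respiratory peaks, and the dashed line marks equal ranks. The points of cox-5A, cox-5B and atp-1 sit at the strong end in both replicates, and isp-1 lies at rank 1363 in replicate 1 and 3667 in replicate 2.

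In strength, the 18 peaks had a median signal of 109, with quartiles of 91.5 and 181, against a median of 90.2 and quartiles of 67.7 and 139 over all 1654 genes with a thresholded promoter peak. Of the 18, 8 (44.4%) had a peak in the strongest 25% of the thresholded list, against 31.9% of the 1654 genes. In position, 17 of the 18 summits were upstream. The median distance was 223.5 bp upstream, against 254 bp for the 1654 genes, and 16 summits (88.9%) lay within 500 bp upstream, against 73.0%. Both atp-1 (6 bp inside) and cox-5B (22 bp upstream) had summits at the start itself, and nduf-2.2 had the most distant one. The 35 pooled summits ranged from 792 bp upstream, at sdha-2, to 54 bp downstream, at cox-10.

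**Figure D3:**
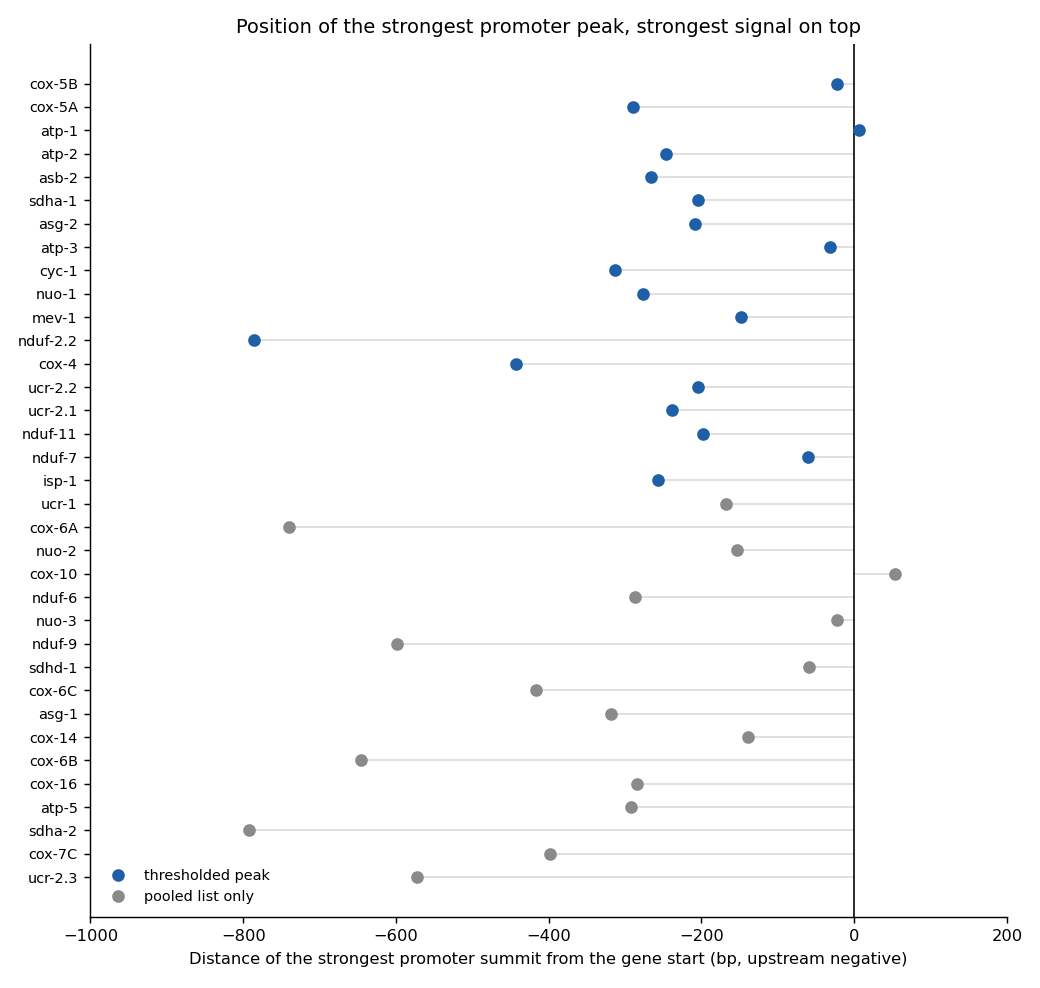
Distance of the strongest pooled promoter summit from the gene start, in bp with upstream negative, for the 35 genes that had one. Genes with a thresholded peak (blue) are ordered by signal above those in the pooled list only (grey). Among the blue points, 16 lie between the start and 500 bp upstream; nduf-2.2 lies at 786 bp upstream and atp-1 at 6 bp downstream.

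Where promoters are shared with a neighbour, a peak cannot be given to 1 gene. At 9 of the 18 genes (50%), against 45.6% of the 1654 genes with a thresholded promoter peak, the summit also lay in the promoter window of another protein-coding gene, in every one of the 9 cases on the opposite strand. The ATP synthase promoters were shared most: asg-2 with glr-6, atp-1 with mcrs-1, atp-2 with C34E10.10 and C34E10.12, and atp-3 with F27C1.2. The others were isp-1 with islo-1, mev-1 with jmjd-4, nduf-2.2 with dlc-1, nuo-1 with rpl-36.A (a cytosolic ribosomal protein gene) and ucr-2.1 with nmat-1. The neighbour's start was nearer the summit for isp-1 (77 bp against 257), mev-1 (111 against 148), nduf-2.2 (657 against 786) and ucr-2.1 (147 against 239). Another start was thus nearer at 4 of the 18 genes (22.2%), against 23.6% of the 1654 genes. The highest signals among peaks not shared with a protein-coding gene were those of cox-5B, cox-5A, asb-2 and sdha-1, the last of which also lay by the snoRNA gene D2021.6. In the pooled list 22 of the 35 genes (62.9%) shared their summit in this way, against 35.6% of all genes with a pooled promoter peak, and another gene's start was nearer at 10 (28.6%, against 18.2%).

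Worm genes on the same strand often lie close together and may be transcribed as operons, so the promoter that serves a gene may lie before its neighbour. The annotation used gives no operons, and a gene was instead called later in a chain when the nearest protein-coding gene upstream on its strand ended at most 1000 bp away. By this measure 20 of the 52 genes (38.5%) were later in a chain, against 6163 of all 19973 protein-coding genes. Among the 32 genes that stood first or alone, 13 (40.6%) had a thresholded promoter peak, against 9.59% of all such genes, and 26 had a pooled one. Among the 20 later genes, 5 (25%) had their own thresholded peak, against 5.35% of all later genes, and 7 (35.0%) had one at the promoter of the first gene, against 14.1%. Counting the promoter of the first gene for every member gave 20 of 52 (38.5%), against 11% of all genes.

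Several respiratory genes without a thresholded peak in their own promoter window lay behind a promoter that had one. For cyc-2.1 this was the promoter of rpl-20, a cytosolic ribosomal protein gene, with a signal of 499.6, stronger than any respiratory promoter peak. For the assembly factors cox-11, cox-18 and cox-15 it was the promoter of lin-54 (369.9), Y55F3AR.2 (174) and rpn-9 (75.6). For nuo-4 it was that of syf-2 (152), and for ucr-11 that of dad-1 (134). The gene nduf-11 had peaks at its own promoter and at that of B0491.6 (85.8). In contrast asb-2, cyc-1, sdha-1 and ucr-2.2 had their own thresholded peak and none at the first gene. Chains were set by distance alone, and transcription from the first promoter was not measured.

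**Figure D4:**
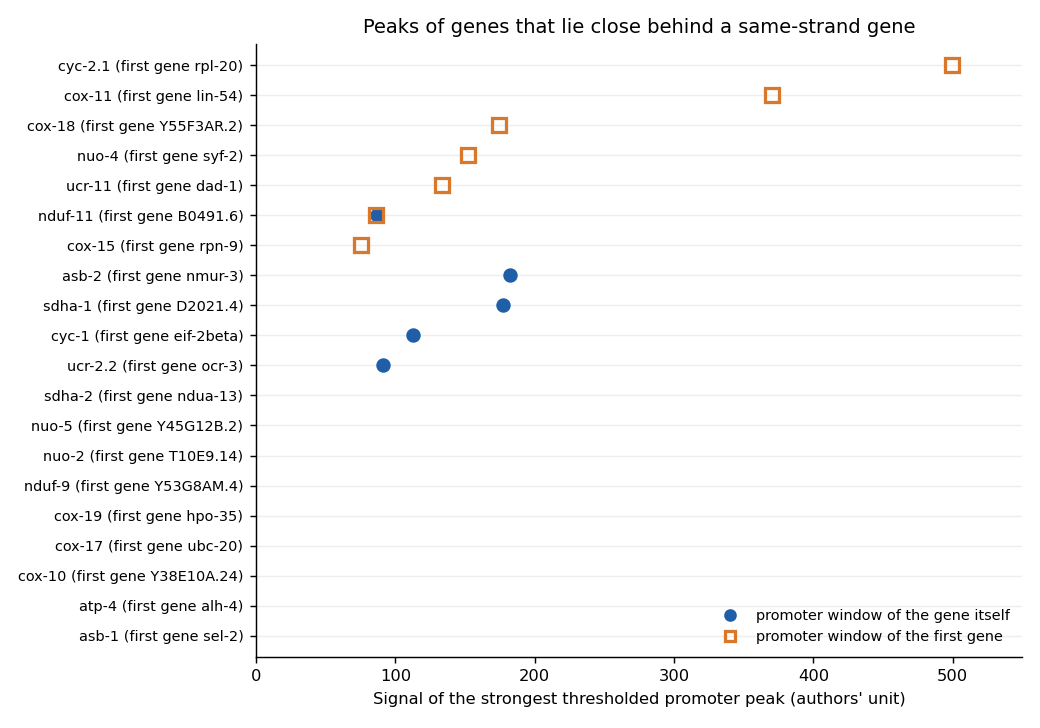
Signal of the strongest thresholded peak, in the authors' unit, for the 20 genes that lie within 1000 bp behind a same-strand gene. Blue circles stand for the promoter window of the gene itself and orange squares for that of the first gene of the chain, which is named in brackets; a row with no symbol had neither. Squares without circles, such as cyc-2.1 behind rpl-20 at 499.6, are genes with a thresholded peak in the window of the first gene and none in their own, and 9 rows are empty.

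By chromosome, members with a thresholded peak were 6 of 16 on I, 2 of 6 on II, 4 of 13 on III, 1 of 6 on IV, 0 of 5 on V and 5 of 6 on X. The share over all genes of a chromosome ran only from 5.41% on V to 11.3% on III, with 8.68% on X. The 5 X-linked genes were asb-2, asg-2, sdha-1, ucr-2.1 and ucr-2.2, and the X-linked gene without a thresholded peak was gas-1. Each of the 5 has a paralog without a thresholded peak on another chromosome, namely asb-1 and ucr-2.3 on III and asg-1 and sdha-2 on I. The paralog ucr-2.3 is the counterpart of both ucr-2.1 and ucr-2.2. For gas-1 it was the other way round, since its paralog nduf-2.2 on III had a thresholded peak (94.99). These contrasts were noted after the values had been seen and were not tested.

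Other pathways that surround the chain were described by the same count, for which the share over all protein-coding genes was 8.28%. The citric acid cycle with pyruvate dehydrogenase, which supplies NADH and succinate, had thresholded promoter peaks at 9 of 21 genes (42.9%), led by dld-1 (178), aco-2 (163), sucl-1 (157) and idh-1 (155). Mitochondrial protein import had 7 of 17 (41.2%), led by the chaperonin hsp-60 (206), tomm-20 (139), ddp-1 (108) and timm-23 (80.5). The mitochondrial ribosome, which makes the subunits encoded in mitochondrial DNA, had 12 of 70 (17.1%), with mrpl-49 (165), mrpl-28 (156), mrps-7 (146) and mrpl-23 (138) the strongest. The carriers, quinone synthesis and assembly genes had 3 of 19 (15.8%), sco-1 (181), the adenine nucleotide carrier ant-1.1 (172) and mai-1 (56.7). Glycolysis had 2 of 18 (11.1%), ipgm-1 (88.1) and gpd-2 (82.2). The list of the mitochondrial stress response had 2 of 8 (25%), hsp-60 and hsp-6 (62.7), both of which are also counted in the import list. The intervals of the carriers (3.38 to 39.6%), glycolysis (1.38 to 34.7%) and the stress response (3.19 to 65.1%) held the 8.28% of all protein-coding genes.

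Away from the mitochondrion, the cytosolic ribosome had thresholded promoter peaks at 65 of 82 genes (79.3%), the proteasome at 11 of 33 (33.3%) and the vacuolar ATPase, another rotary ATPase, at 5 of 21 (23.8%). The interval of the respiratory share (22 to 49.1%) lay below that of the cytosolic ribosome (68.9 to 87.4%). It overlapped those of all the other lists, among them the proteasome (17.96 to 51.8%), the citric acid cycle (21.8 to 66.0%) and glycolysis (1.38 to 34.7%). These intervals cover the counting of genes, which are not replicates, so neither overlap nor its lack is a test. Differences between these lists were not tested.

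**Figure D5:**
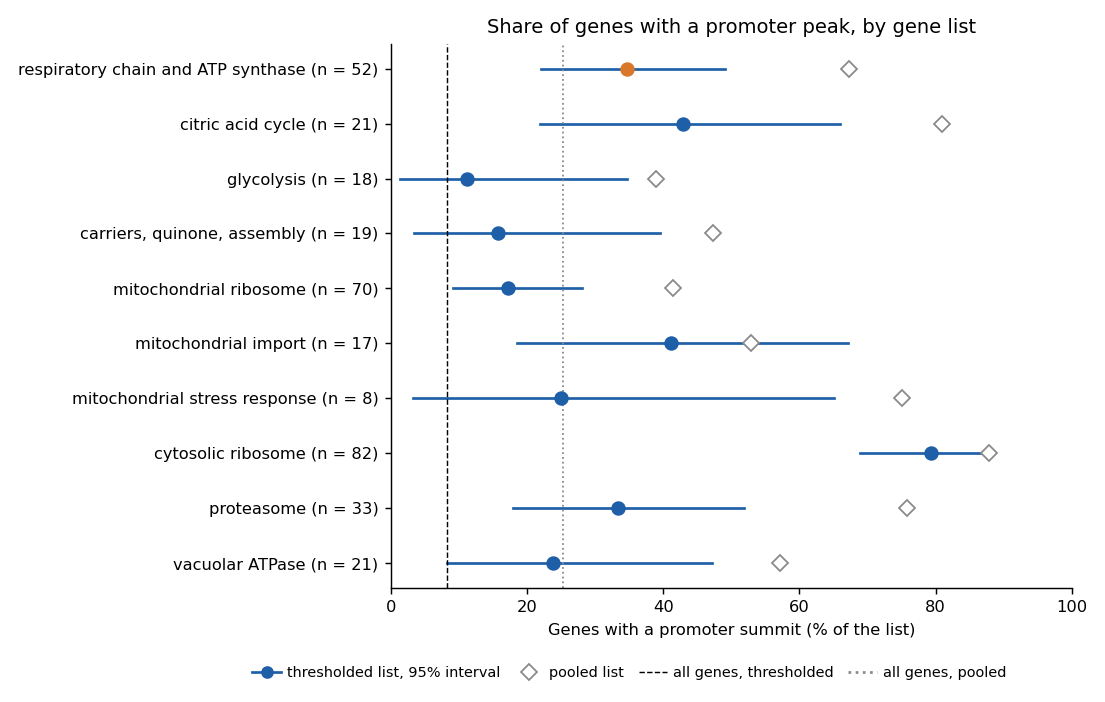
Percentage of the genes of each list with a promoter summit. Circles are thresholded peaks with 95% Clopper-Pearson intervals, orange for the respiratory chain and ATP synthase and blue for the other lists, diamonds are pooled peaks, and the vertical lines give the shares over all protein-coding genes (8.28% and 25.3%). The cytosolic ribosome lies farthest to the right at 79.3%, and the respiratory genes lie at 34.6%.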

How the data were processed

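ChIP-seq of eGFP-tagged NHR-11 was run on 2 biological replicates, and the authors deposited peak lists for each replicate, for both pooled and for a thresholded set, in builds ce11 and ce10; ce11 was used. Each peak has a deposited signal value, a deposited −log10 q-value and a summit offset, as the files hold them. Per the texts deposited with the files, the thresholded list came from the pooled and replicate lists by irreproducible discovery rate. Of the aligner, the peak caller and the threshold used, the name or value is not given in the sources used here. Peaks were ranked by signal, since many in the pooled and thresholded lists share the highest −log10 q of those lists, 3.52. Depth is unknown, since the lists hold no read counts, and this limits what an absent peak can mean.

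Summits were joined to gene starts of Ensembl release 115 (WBcel235, the sequence of ce11; no peak ran past a chromosome end) in a window of 1000 bp upstream to 200 bp downstream, for all 19973 genes alike, and sequence was read from the NCBI copy of the same assembly. Where several summits fell in a window, the strongest is given. Python 3.11.15, numpy 2.4.6 and scipy 1.17.1 were used, and the joining was tested on simulated peaks. With a single group no test was made. The members and lists were chosen with earlier results of these data known. Every member with a thresholded promoter peak is named with its values, those with a pooled peak with their signal, and up to 4 genes of each other list. Alternatives covered the window, the starts, the peak middle, the stronger 1359 peaks, the nearest start, each replicate alone, the chain gap, the matching of replicates and the motif window.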

Additional observations from a re-analysis of the deposited data

How the results depend on the processing

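The count of 18 genes with a thresholded promoter peak stayed within 1.5 times under every alternative run. The share of all protein-coding genes, 8.28% in the main setting, moved as well and is given beside each count. With a window of 500 bp upstream to 100 bp downstream it was 17 (without nduf-2.2; all genes 6.43%). With 2000 bp upstream it was 22 (adding cox-10, cox-14, cyc-2.1 and ucr-11; all genes 11.2%). Any annotated transcript start gave 20 (adding cox-6B and cyc-2.1; all genes 9.12%). The nearest start only gave 14 (without isp-1, mev-1, nduf-2.2 and ucr-2.1; all genes 6.28%). With the newer complex I names, an alternative chosen after the data were seen, the count was 23. That alternative adds 21 genes, so the count could not fall. The share was 31.5% of 73 genes, against 34.6% of the 52. Leaving out 1 replicate and taking the 2719 strongest peaks of the other gave 17 to 19 genes. Without replicate 1 isp-1 was lost (all genes 8.26%), and without replicate 2 ucr-1 was gained (all genes 8.04%). The stronger 1359 peaks kept 17 of the 18 genes, while the share of all genes fell to 4.59%.

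Of 43 alternatives in all, 33 left their result in place, 10 moved it and 0 reversed it. With the 2000 bp window, 14 genes shared their summit with another promoter in place of 9. The median distance of -223.5 bp became -208 with the narrow window, -251.5 with the wide one, -206.5 with any transcript start and -208 with the stronger peaks; between replicates it differed by an SD of 13.4 bp. Genes with a summit in both replicates were 31 in the full lists and 17 among each replicate's strongest peaks. Within 100 bp of the summit, GGGCGG was at 7 genes (38.9%, all thresholded summits 9.45%), TATAAA at 3 (16.7%, 11.8%) and TTTTTTTT at 4 (22.2%, 10.5%). In the windows upstream of all genes, the shares in the same order were 5.97%, 30.5% and 26.3%. The respiratory shares of TATAAA and TTTTTTTT thus lay above those of all thresholded summits and below those of the upstream windows. Depth is unknown, no control was used here, and an absent peak is not shown to be absence of binding.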
